A study of Rattus norvegicus with 10 samples.

Results

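The genes described here are 28 genes of cholesterol synthesis, sensing and transport in rat liver, taken by symbol from the 32883 genes of the deposited TPM table. They comprise 18 enzymes that build cholesterol, 4 genes that sense it and 6 genes that move or esterify it. All 28 matched a symbol, and all 28 reached 1 TPM in 5 or more of the 10 samples, the level required for testing. The livers came from male rats aged 5 weeks, 5 of them EHBR and 5 Sprague-Dawley (SD), numbered 1 to 5 in each strain. EHBR, the Eisai hyperbilirubinemic rat, descends from the SD stock and has no functional Mrp2, the canalicular export pump for conjugated bilirubin that Abcc2 encodes. The labels name no treatment, so strain was the only factor, and loss of Mrp2 and any other difference between the strains cannot be told apart. The labels do not state how the animals were bred, so the samples of a strain may not be independent. The p-values set each difference only against the spread among these samples. Liver was sequenced whole, and fewer cells of a type and less RNA per cell cannot be told apart.

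Hepatocytes make cholesterol from acetyl-CoA through mevalonate, isoprenoid units, squalene and lanosterol. The transcription factor SREBP-2, escorted by SCAP, switches on most genes of this route when membrane sterol is low, and the INSIG proteins hold SCAP in the endoplasmic reticulum when sterol is high. Cholesterol is then esterified, secreted in lipoproteins or converted to bile acids, while Npc1 and Npc2 release cholesterol that arrives through lysosomes.

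Between 13.8 and 19.6 M reads per sample were assigned to genes, and the 28 genes were covered by between 145 reads (Stard4) and 15073 reads (Fdps) in a sample. Abcc2 stood at 10.1 to 17.6 TPM in EHBR samples and at 59.98 to 271 TPM in SD samples (log2 difference -3.25, SE 0.41, adjusted p = 0.000996, limma). Summed TPM of 6 hepatocyte markers was 156990 to 180740 in EHBR and 136810 to 168310 in SD, so the markers that the tissue label implies were present. Within both strains, samples 4 and 5 differed from samples 1 to 3 across many genes. The labels do not say what the numbers stand for, but each number occurs once per strain, so the strain difference of each called gene among the 28 is also given within numbers 1 to 3 and within numbers 4 and 5. Summed TPM of 12 circadian clock genes was 327 to 374 in EHBR samples 1 to 3 and 71.5 to 78.3 in EHBR samples 4 and 5. In SD, it was 231 to 304 in the first set of numbers and 46.7 to 54.9 in the second. Dbp had the largest part of the sums in samples 1 to 3, and not every clock gene followed them. Arntl went the other way, with 0.493 to 1.97 TPM in EHBR samples 1 to 3 and 13.0 and 8.67 TPM in EHBR samples 4 and 5. In SD, Arntl had 0.606 to 2.88 TPM in samples 1 to 3 and 10.6 and 11.1 TPM in samples 4 and 5. Cholesterol synthesis is known to vary over the day in rat liver, and the part of these clock levels in the results was not tested.

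Between strains, Hmgcs1 and Idi1 were lower and Insig1 was higher in EHBR, and the other 25 genes were not called when strain was the only factor. With a term for the 2 sets of numbers, Scap (adjusted p = 0.0105), Npc2 (0.038) and Tm7sf2 (0.0386) were called higher and Msmo1 (0.0337) lower as well, by limma, and the calls over all genes were then 16.9%. Levels are in TPM, which scales transcript levels per length to the same total in every sample. Differences are EHBR minus SD on the scale of log2(TPM + 1), tested with limma across 11083 genes, and a gene was called at a Benjamini-Hochberg adjusted p under 0.05. The 3 called genes are 10.7% of the 28, where 5.45% of all tested genes were called (3.82% higher and 1.63% lower). At an unadjusted p under 0.05 were 8 of the 28, against 2317 of all 11083 genes (limma). By voom on recovered reads these were 10 of the 28 and 2107 of 11044 genes. The unadjusted counts of smaller lists between strains are to be read against these. The median difference was 0.03 over the 28 genes and 0.15 over all tested genes. That shift of all genes depended on the scaling. Centring each sample on its median turned it to -0.02 (log2), and the differences of Hmgcs1, Idi1 and Insig1 were then -1.41, -1.01 and 1.26. Of the 28 genes, 16 had a positive and 12 a negative sign. After centring, 9 were positive.

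**Figure D1:**
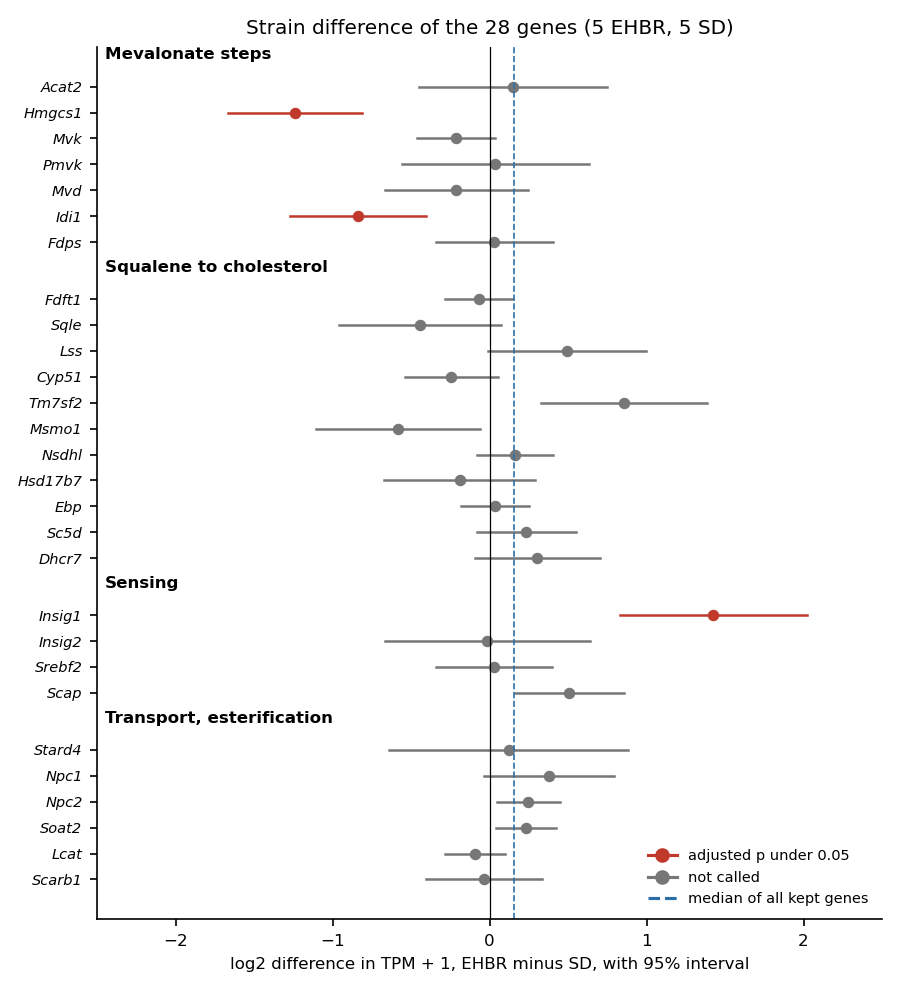
Log2 difference in TPM + 1, EHBR minus SD, for the 28 genes in order of their role, with the 95% interval from limma (n = 5 per strain); red points passed an adjusted p of 0.05 and the dashed line is the median of all tested genes. Hmgcs1 and Idi1 lie to the left and Insig1 to the right, and the intervals of most other genes cross 0.

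The promoters of the 3 called genes are shown because these genes changed in opposite directions and carry the strain result. They are the 250 bases before the start of each gene, from RefSeq on the build GRCr8, 5′ to 3′ on the gene's strand. Capitals mark a CCAAT box (CCAAT, or ATTGG on the other strand), a GC box (GGGCGG, or CCGCCC) and an E-box (CACGTG). The stretches are chr2:53382054-53382303 on the plus strand for Hmgcs1, chr17:66547525-66547774 on the minus strand for Idi1 and chr4:8057770-8058019 on the minus strand for Insig1. The rn6 annotation deposited with the levels places Insig1 on the plus strand of chromosome 4, so the builds differ in its orientation, and the stretch shown precedes the start that GRCr8 gives.
Hmgcs1: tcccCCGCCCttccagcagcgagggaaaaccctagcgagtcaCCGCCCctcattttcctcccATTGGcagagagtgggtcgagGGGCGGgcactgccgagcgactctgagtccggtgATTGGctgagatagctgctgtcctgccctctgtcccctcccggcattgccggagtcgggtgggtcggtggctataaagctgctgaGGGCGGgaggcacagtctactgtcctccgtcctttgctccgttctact
Idi1: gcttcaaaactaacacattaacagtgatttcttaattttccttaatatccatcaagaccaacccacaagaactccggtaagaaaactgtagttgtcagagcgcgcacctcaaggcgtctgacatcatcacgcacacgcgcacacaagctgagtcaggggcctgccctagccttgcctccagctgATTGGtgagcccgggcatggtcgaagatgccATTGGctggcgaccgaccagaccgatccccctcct
Insig1: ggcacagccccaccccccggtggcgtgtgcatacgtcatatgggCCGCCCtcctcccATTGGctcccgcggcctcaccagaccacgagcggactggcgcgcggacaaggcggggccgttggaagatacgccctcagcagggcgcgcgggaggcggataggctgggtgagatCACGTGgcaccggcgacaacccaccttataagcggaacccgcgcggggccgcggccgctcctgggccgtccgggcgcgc
The Hmgcs1 stretch holds 2 CCAAT boxes and 4 GC boxes, and the Idi1 stretch holds 2 CCAAT boxes and no GC box. The Insig1 stretch holds 1 of each, and 1 E-box. Of the 28 genes, 22 had a promoter in the RefSeq table, and Pmvk, Fdft1, Sqle, Stard4, Soat2 and Scarb1 were not matched. A CCAAT box stood in 17 of the 22, or 77.3%, against 34% of all 33469 promoters of the same length. A GC box stood in 18 of the 22, or 81.8%, against 30.5% of all. An E-box stood in 3 of the 22 (Sc5d, Insig1 and Scap), or 13.6%, against 5.59% of all. The 33469 promoters were not limited to genes tested here, while all 22 were. These shares therefore do not set the 22 against other genes expressed in liver. Both strands were searched, and no motif contains another. A match is a run of letters and not a site of binding, and the absence of one says only that these letters are not in this window.

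The mevalonate steps turn acetyl-CoA into the branched building blocks of sterols. Of their 7 genes, Hmgcs1 and Idi1 were lower in EHBR and 5 were not called. Hmgcs1 encodes cytosolic HMG-CoA synthase, which joins acetoacetyl-CoA and acetyl-CoA (ENSRNOG00000016552, rn6 chromosome 2 from 52431601 to 52445055). It had 90.0, 80.1, 59.4, 91.5 and 79.0 TPM in EHBR samples 1 to 5, against 185, 228, 267, 169 and 124 TPM in SD samples 1 to 5. Every EHBR sample lay below every SD sample, with SD sample 5 the lowest of its strain. The mean was 80.0 ± 12.8 TPM in EHBR and 194 ± 55.0 TPM in SD (SD, n = 5 each), a ratio of 0.411. The log2 difference of Hmgcs1 was -1.24 (SE 0.19, adjusted p = 0.00324, limma), with -1.56 among samples 1 to 3 (adjusted p = 0.00153, limma) and -0.76 among samples 4 and 5 (adjusted p = 0.0423, limma).

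Idi1 encodes isopentenyl-diphosphate isomerase, which makes the allylic starter for chain growth (ENSRNOG00000016690, rn6 chromosome 17 from 57976268 to 57984036). It had 21.4, 15.8, 14.8, 17.7 and 16.8 TPM in EHBR, against 30.5, 47.6, 39.3, 24.9 and 21.7 TPM in SD. The strains did not overlap, but SD sample 5 lay just above EHBR sample 1. The difference was -0.84 (SE 0.20, adjusted p = 0.0303, limma), -1.13 among samples 1 to 3 (adjusted p = 0.00551, limma) and -0.41 among samples 4 and 5 (adjusted p = 0.184, limma). Without EHBR sample 2, 3, 4 or 5 or SD sample 1 or 3, each left out alone, Idi1 was no longer called, and its adjusted p over the 10 omissions ran between 0.0122 and 0.084 (limma). In the test within samples 1 to 3, it was called in all 23 alternatives, as was Hmgcs1. Hmgcs1 and Idi1 were the only 2 of the 28 genes with no overlap between strains, both with EHBR below, where 2.02% of all tested genes were separated in that direction, 6.45% in the other and 8.47% in either.

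The other 5 mevalonate genes were not called over all samples or within either set of numbers. Fdps, the farnesyl diphosphate synthase, was the most abundant of the 7 at 266 ± 59.4 TPM in EHBR and 261 ± 59.1 TPM in SD (log2 difference 0.03, 95% interval -0.34 to 0.40). Fdps has processed pseudogenes, and the sources used here do not say how reads shared with them were counted. Mvk, the mevalonate kinase, had 22.4 ± 1.40 TPM in EHBR and 26.2 ± 3.78 TPM in SD (log2 difference -0.21, interval -0.46 to 0.04). Mvd, which decarboxylates mevalonate diphosphate, differed by -0.21 (interval -0.67 to 0.24). Pmvk, the phosphomevalonate kinase, and Acat2, the cytosolic thiolase, had wider spreads in both strains. Pmvk had 98.2 and 75.8 TPM in EHBR samples 4 and 5 and 37.3 to 48.6 TPM in EHBR samples 1 to 3, and Acat2 18.9 and 15.5 TPM against 9.38 to 10.1 TPM. In SD, Pmvk had 90.9 TPM in sample 5 and 44.4 to 59.4 TPM in the others, and Acat2 17.4 and 16.2 TPM in samples 2 and 3 and 7.12 to 10.2 TPM in the others. Summed TPM of the 7 genes was 479 ± 102 in EHBR and 607 ± 62.1 in SD (SD, n = 5 each). The sums of both strains overlapped, and most of the difference in their means lay in Hmgcs1.

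**Figure D2:**
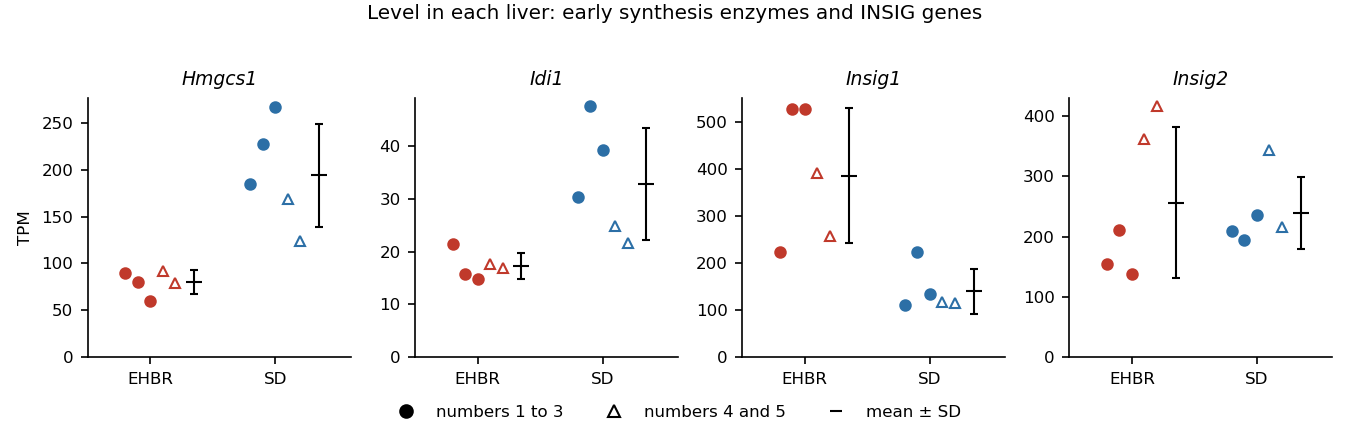
TPM of Hmgcs1, Idi1, Insig1 and Insig2 in each liver, with EHBR left of SD; filled circles are samples 1 to 3, open triangles samples 4 and 5, and bars the mean ± SD of 5 samples. For Hmgcs1 and Idi1 all EHBR points lie below all SD points, while for Insig1 the lowest EHBR and the highest SD sample meet and for Insig2 the strains overlap.

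From squalene to cholesterol, none of the 11 genes was called between strains by limma, with 2 at an unadjusted p under 0.05. voom on recovered reads also called 0 of the 11, with 4 at an unadjusted p under 0.05. With a term for the sets of numbers, limma called Tm7sf2 higher and Msmo1 lower. The signs were mixed, with 6 positive and 5 negative. Sqle, the squalene epoxidase, had 15.8 ± 3.28 TPM in EHBR and 22.6 ± 8.18 TPM in SD (log2 difference -0.44, interval -0.96 to 0.07), with -0.64 among samples 1 to 3 (adjusted p = 0.0725, limma) and -0.15 among samples 4 and 5. Msmo1, which removes methyl groups at C-4 of lanosterol products, had 71.6 ± 15.6 TPM in EHBR and 112 ± 41.3 TPM in SD (log2 difference -0.58, adjusted p = 0.191, limma). Msmo1 differed by -0.75 within the first set of numbers (adjusted p = 0.0541, limma) and by -0.33 within the second, and was called between strains in 4 of 25 alternatives. Cyp51, the lanosterol demethylase, had 130 ± 16.8 TPM in EHBR and 155 ± 29.0 TPM in SD (log2 difference -0.24). Hsd17b7, the sterol 3-keto reductase, was the least abundant of the 28 genes at 6.21 ± 0.853 TPM in EHBR and 7.61 ± 3.18 TPM in SD. For Sqle, Msmo1, Cyp51 and Hsd17b7, SD samples 2 and 3 were the highest of the 10 samples.

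Fdft1, which makes squalene, differed by -0.07 (interval -0.28 to 0.15), and Ebp, the sterol isomerase, by 0.03 (interval -0.18 to 0.25). These intervals were among the narrowest of the 28 genes. Nsdhl, the C-4 decarboxylating dehydrogenase, differed by 0.16 (interval -0.08 to 0.40) and Sc5d, the sterol C-5 desaturase, by 0.23 (interval -0.08 to 0.55). Tm7sf2, a sterol C-14 reductase, had 55.4, 59.2, 58.6, 79.0 and 73.7 TPM in EHBR, against 27.4, 72.3, 30.2, 27.0 and 33.1 TPM in SD. SD sample 2 lay among the EHBR samples, and the other 4 SD samples lay below all of them. The difference of Tm7sf2 was 0.86 (SE 0.24, adjusted p = 0.0667, limma), and without SD sample 2 it was 1.11 (adjusted p = 0.00124, limma).

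Within samples 4 and 5, Lss, Tm7sf2 and Dhcr7 were higher in EHBR. Lss, the lanosterol synthase, had 12.9, 14.996, 10.3, 16.4 and 12.1 TPM in EHBR, against 9.51, 13.9, 12.3, 5.41 and 6.77 TPM in SD. Its SD samples 4 and 5 were the lowest of the 10, while samples 1 to 3 of the strains overlapped. Lss differed by 0.09 among samples 1 to 3 and by 1.10 among samples 4 and 5 (SE 0.22, adjusted p = 0.0123, limma). Tm7sf2 differed by 0.55 among samples 1 to 3 and by 1.32 among samples 4 and 5 (SE 0.36, adjusted p = 0.0314, limma).

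Dhcr7, the reductase that completes cholesterol from 7-dehydrocholesterol, had 72.2, 83.8, 74.2, 148 and 117 TPM in EHBR, against 79.9, 80.0, 78.5, 70.5 and 75.7 TPM in SD. EHBR samples 4 and 5 stood above all others, and the SD samples lay close together. Dhcr7 differed by -0.05 among samples 1 to 3 and by 0.84 among samples 4 and 5 (SE 0.12, adjusted p = 0.00482, limma). The 2 differences differed by 0.89 (SE 0.16, unadjusted p = 0.000245, adjusted p = 0.0578, limma), which missed the threshold. In 4 of 23 alternatives this difference was called, one of them the omission of EHBR sample 5, with an adjusted p between 0.0288 and 0.192 over the alternatives (limma and voom).

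Summed over all 18 synthesis enzymes, the TPM was 1524, 1505, 1300.0, 1888 and 1563 in EHBR, against 1482, 1986, 1741, 1456 and 1644 in SD. The strains overlapped throughout, with means of 1556 ± 212 in EHBR and 1662 ± 216 in SD. The difference between the means was smaller than either SD. EHBR sample 4 and SD sample 2 had the highest sums of their strains.

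**Figure D3:**
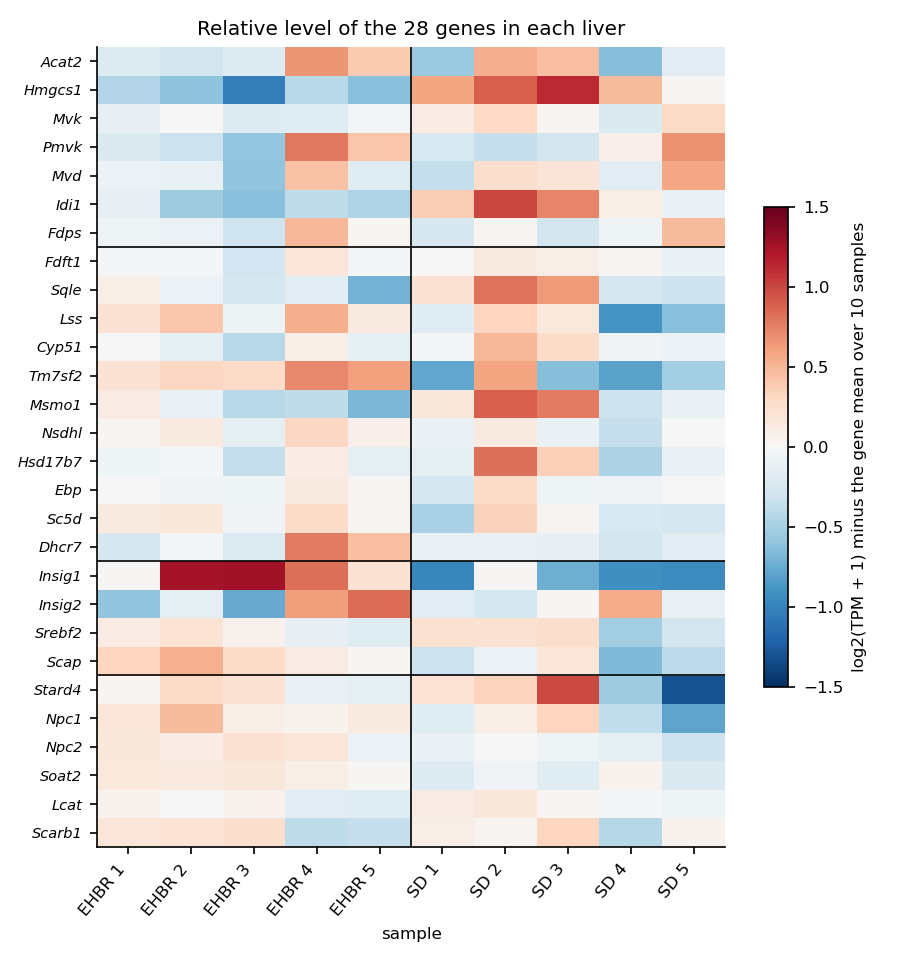
Log2(TPM + 1) of each of the 28 genes in each liver, minus the gene's mean over the 10 samples, with EHBR columns left of SD columns; lines separate mevalonate steps, later synthesis, sensing and transport. SD samples 2 and 3 are high for Hmgcs1, Idi1, Sqle and Msmo1, EHBR samples 2 and 3 are high for Insig1, and EHBR samples 4 and 5 are high for Dhcr7.

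Among the 4 sensing genes, Insig1 was higher in EHBR and Insig2, Srebf2 and Scap were not called. Insig1 is itself a target of SREBP-2, and its protein retains the SCAP complex (ENSRNOG00000006859, rn6 chromosome 4 from 342302 to 350515). It had 223, 527, 528, 391.9 and 257 TPM in EHBR, against 111, 224, 133, 116 and 114 TPM in SD. EHBR samples 2 and 3 were the highest, and the ranges met at a single point, where EHBR sample 1 at 223.44 TPM lay just below SD sample 2 at 223.51 TPM. The mean was 386 ± 144 TPM in EHBR and 140 ± 47.7 TPM in SD (SD, n = 5 each), a ratio of 2.76. The difference of Insig1 was 1.43 (SE 0.27, adjusted p = 0.0101, limma). It was 1.40 among samples 1 to 3 (adjusted p = 0.0449, limma) and 1.46 among samples 4 and 5 (adjusted p = 0.0406, limma), and the second value minus the first was 0.05 (SE 0.56). Within samples 1 to 3 it was called in 7 of 23 alternatives (2 of the 10 omissions, those of EHBR sample 1 and of SD sample 2), and within samples 4 and 5 in 9 of 23, with a positive sign in all of them. Hmgcs1 and Idi1, which SREBP-2 also activates, thus had the opposite sign to Insig1 in both sets of samples.

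Insig2, the related retention protein, had 154, 211, 138, 361 and 417 TPM in EHBR, against 209, 194, 236, 343 and 216 TPM in SD. The strains overlapped, and samples 4 and 5 of EHBR and sample 4 of SD were the highest. The difference of Insig2 was -0.01 (interval -0.67 to 0.64), -0.36 among samples 1 to 3 and 0.51 among samples 4 and 5, with neither called. Srebf2, which encodes SREBP-2, had 17.6 ± 2.11 TPM in EHBR and 17.5 ± 4.30 TPM in SD (log2 difference 0.03, interval -0.34 to 0.40). Scap had 43.6, 50.4, 41.9, 37.8 and 35.02 TPM in EHBR, against 27.7, 32.5, 39.5, 21.4 and 26.1 TPM in SD. SD sample 3 lay above EHBR samples 4 and 5, and all other SD samples lay below the EHBR range. The difference of Scap was 0.51 (SE 0.16, adjusted p = 0.0921, limma) and 0.60 among samples 4 and 5 (SE 0.17, adjusted p = 0.034, limma). Without SD sample 3, or with a term for the sets of numbers, Scap was called between strains (log2 difference 0.62, adjusted p = 0.0322, and 0.51, adjusted p = 0.0105, limma). Summed TPM of the 4 genes was 701 ± 152 in EHBR and 426 ± 56.7 in SD, with Insig1 making up most of the difference.

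Of the 6 transport and esterification genes, none was called between strains by limma, with 2 (Npc2 and Soat2) at an unadjusted p under 0.05. voom on recovered reads also called 0 of the 6, with 1 at an unadjusted p under 0.05. With a term for the sets of numbers, limma called Npc2 higher. Npc1, the lysosomal membrane protein that releases cholesterol, had 18.1, 22.4, 17.0, 16.5 and 17.5 TPM in EHBR, against 13.8, 16.9, 20.02, 12.0 and 8.74 TPM in SD. SD sample 5 was the lowest and SD sample 3 lay inside the EHBR range. The difference of Npc1 was 0.38 over all samples and 0.68 among samples 4 and 5 (SE 0.20, adjusted p = 0.0399, limma). Npc2, its soluble partner in the lysosome, had 113 ± 9.45 TPM in EHBR and 94.7 ± 7.64 TPM in SD (log2 difference 0.25, interval 0.05 to 0.45, adjusted p = 0.153, limma).

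Soat2, which esterifies cholesterol inside hepatocytes, had 43.7 ± 1.90 TPM in EHBR and 37.2 ± 3.09 TPM in SD (log2 difference 0.23, interval 0.04 to 0.42, adjusted p = 0.156, limma). For Npc2 and Soat2 the difference was close to the 0.15 of the median gene. Lcat, which esterifies cholesterol in plasma lipoproteins, was the most abundant of the 28 genes, at 575 ± 44.7 TPM in EHBR and 614 ± 42.3 TPM in SD (log2 difference -0.09, interval -0.28 to 0.10). Scarb1, the receptor for high-density lipoprotein, differed by -0.04 (interval -0.41 to 0.34). Stard4, a cytosolic sterol carrier, had 9.93 to 13.6 TPM in EHBR and 3.82 to 22.8 TPM in SD, the largest ratio of highest to lowest sample among the 28 genes. Its log2 difference was 0.12 over all samples and 0.80 among samples 4 and 5 (adjusted p = 0.0704, limma). Summed TPM of the 6 genes was 811 ± 65.1 in EHBR and 822 ± 59.7 in SD.

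**Figure D4:**
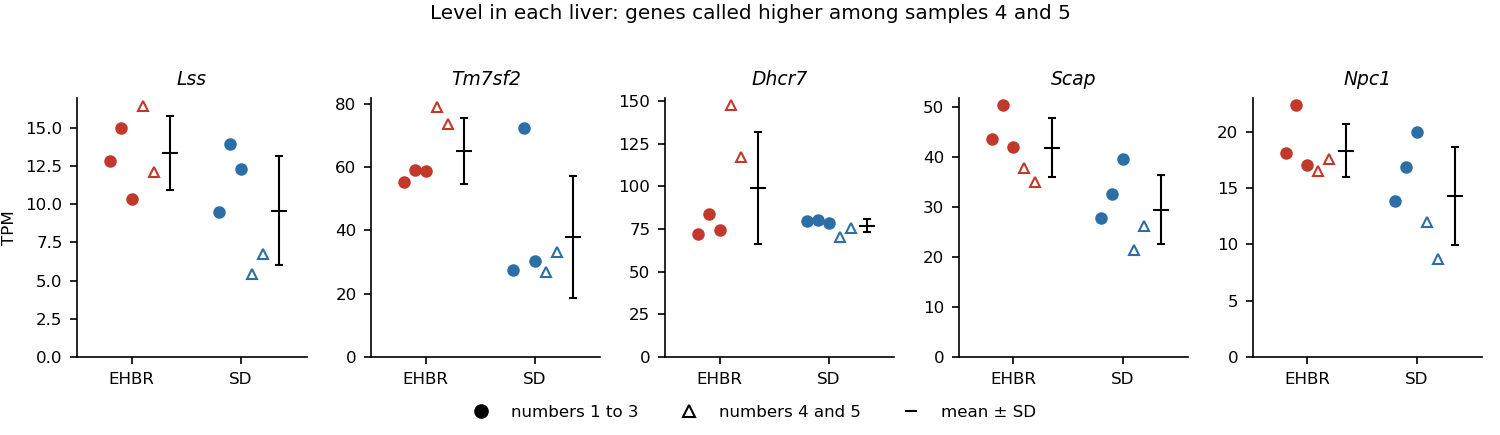
TPM of Lss, Tm7sf2, Dhcr7, Scap and Npc1 in each liver, with EHBR left of SD; filled circles are samples 1 to 3, open triangles samples 4 and 5, and bars the mean ± SD of 5 samples. The open triangles of EHBR lie above those of SD in all 5 panels, while the filled circles of the strains overlap in each of them except Scap.

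Within samples 1 to 3, 3 of the 28 genes were called, Insig1 higher and Hmgcs1 and Idi1 lower, where 7.13% of all tested genes were called (4.84% higher and 2.29% lower). Within samples 4 and 5, 7 of the 28 were called, or 25%, where 23% of all tested genes were called (19.6% higher and 3.38% lower). These were Insig1, Npc1, Dhcr7, Scap, Tm7sf2 and Lss, all higher, and Hmgcs1, lower. A share this near to that of all genes is no result about these 28. The median of all tested genes was 0.07 within samples 1 to 3 and 0.27 within samples 4 and 5, and that of the 28 genes -0.08 and 0.23. With each sample centred on its median, Dhcr7 and Lss remained called higher among samples 4 and 5, and Hmgcs1, Idi1 and Lcat were called lower. Without EHBR sample 4, only Dhcr7 of the 28 was called among samples 4 and 5, without EHBR sample 5 or SD sample 5 only Dhcr7 and Lss, and 4.11%, 12.3% and 6.83% of all genes were called then. Among samples 4 and 5, Hmgcs1 was no longer called without EHBR sample 2, 4 or 5 or SD sample 2, 4 or 5, each left out alone. Lss was no longer called without EHBR sample 4 or SD sample 4, and Tm7sf2 without sample 4 or 5 of either strain. Scap was called in 5 and Npc1 in 4 of the 10 omissions, and Dhcr7 in all 10. Where sample 4 or 5 is left out, a single sample is left on one side, and it is taken to vary like the other groups.

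The strain difference among samples 4 and 5 minus that among samples 1 to 3 was called for 0 of the 28 genes by limma, with 8 at an unadjusted p under 0.05, where 0.271% of all tested genes were called (0.208% higher and 0.0632% lower). voom on recovered reads also called 0, with 7 at an unadjusted p under 0.05. Of all genes, 2252 of 11083 by limma and 2196 of 11044 by voom had an unadjusted p under 0.05. The sign was positive in 25 of the 28 genes and in all 18 synthesis enzymes, with a median of 0.34 for the 28 and 0.19 for all tested genes, of which 69.3% were positive. After centring on sample medians, 18 of the 28 and 14 of the 18 enzymes were positive, with a median of 0.10 for the 28 and -0.06 for all genes, of which 43.9% were positive. With quantile normalization, 24 of the 28 and all 18 enzymes were positive. The median was then 0.302 for the 28 and -0.004 for all genes, of which 49.6% were positive. With the length trend removed, 20 of the 28 and 16 of the 18 were positive, so these counts depended on the scaling. Acat2 had the largest such value at 1.29 (SE 0.42, adjusted p = 0.154, limma), followed by Stard4 at 1.14 and Lss at 1.01. Without SD sample 1, Acat2 was called at 1.65 (adjusted p = 0.0358, limma). Of the 12 clock genes, Nr1d1 was called in this comparison (2.23, SE 0.34, adjusted p = 0.0413, limma), with 14.95 and 17.5 TPM in EHBR samples 4 and 5, against 4.48 and 2.44 TPM in SD samples 4 and 5.

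**Figure D5:**
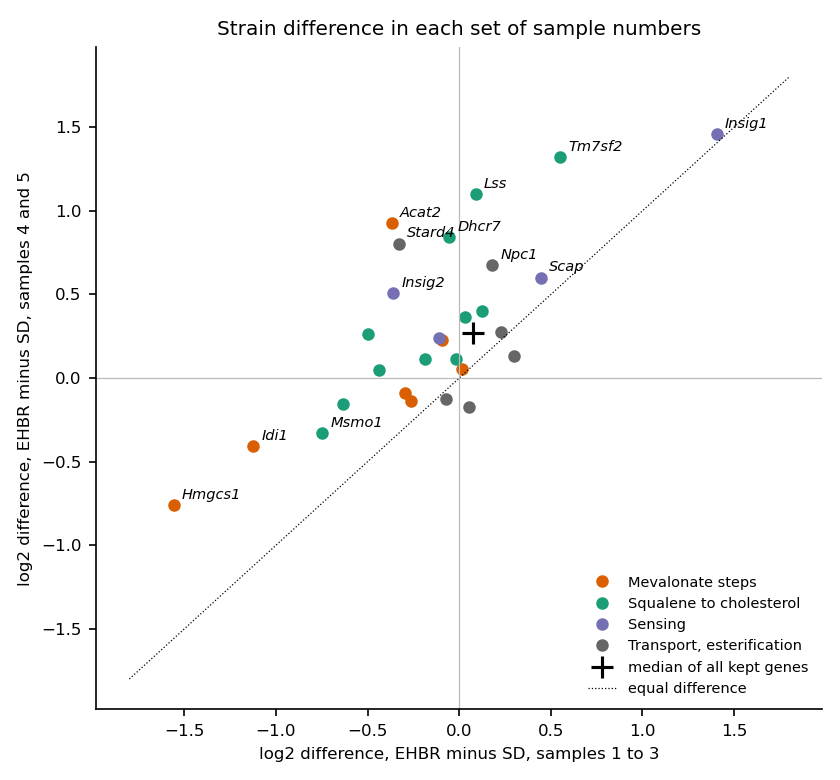
Log2 difference, EHBR minus SD, among samples 1 to 3 (horizontal) and among samples 4 and 5 (vertical) for the 28 genes, coloured by role; the cross is the median of all tested genes and the dotted line marks equal differences. Most genes lie above the dotted line, as does the median of all genes, while Insig1 lies close to it.

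Other genes of the pathway were taken from lists of their neighbours. Of 5 genes that supply acetyl-CoA and NADPH, Acly, Acss2 and Me1 were higher and Acat1 was lower in EHBR by limma, while voom called 2 higher and 0 lower. Acly, the ATP citrate lyase that releases acetyl-CoA from citrate, had 327 ± 98.1 TPM in EHBR and 119 ± 44.2 TPM in SD (log2 difference 1.49, SE 0.25, adjusted p = 0.00573, limma). Acss2, which makes acetyl-CoA from acetate, had 59.9 ± 12.9 TPM in EHBR and 31.9 ± 5.85 TPM in SD (log2 difference 0.88, SE 0.16, adjusted p = 0.0077, limma). Acly was called within both sets of numbers, with 1.27 in the first and 1.805 in the second. Acss2 was called within the second (1.23) and not within the first (0.65, adjusted p = 0.0607, limma). Acat1, the mitochondrial thiolase, differed by -0.41 (adjusted p = 0.0487, limma), and Slc25a1, the citrate carrier, by 0.13 (adjusted p = 0.466, limma). Of 8 genes of the isoprenoid branches, Pggt1b, a prenyl transferase subunit, was higher (5.30 ± 1.06 TPM in EHBR and 2.44 ± 0.939 TPM in SD, log2 difference 0.90, adjusted p = 0.0245, limma).

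None of 10 genes of SREBP processing and sterol-linked protein degradation was called by limma, with 1 at an unadjusted p under 0.05, and voom called 0, with 3. Within samples 4 and 5, 2 of the 10 were called higher, among them Erlin2, of sterol-linked degradation (log2 difference 0.67). None of 14 further sterol traffic genes was called by limma, with 2 at an unadjusted p under 0.05, and voom called 0, with 2. Within samples 4 and 5, 4 of the 14 were called higher and 1 lower, which was Nceh1, a cholesterol ester hydrolase (-1.09). Of all tested genes, 19.6% were called higher and 3.38% lower within samples 4 and 5. Whether any list in this paragraph differed from those shares was not tested. None of 9 genes of LXR signalling and sterol efflux was called by limma, with 3 at an unadjusted p under 0.05, and voom called 0, with 1. Abcg8, a subunit of the sterol exporter into bile, was called lower within samples 1 to 3 (-1.51, adjusted p = 0.0357, limma), and Lipc, the hepatic lipase, higher within samples 4 and 5 (0.71, adjusted p = 0.014, limma). With a term for the sets of numbers, limma called 1 gene higher in each of these 3 lists. None of the 12 clock genes was called between strains by limma or voom, with 0 at an unadjusted p under 0.05 in both. Within samples 1 to 3, Per1 (1.32) and Cry2 (0.73) were called higher, with 7 of the 12 at an unadjusted p under 0.05, and within samples 4 and 5 Nr1d1 (1.98) and Nr1d2 (0.93) were called higher. Of all 11083 genes, 2460 had an unadjusted p under 0.05 within samples 1 to 3 (limma). With a term for the sets of numbers limma called 3 clock genes higher, and with the replicate block 2.

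Markers of other cell types moved with strain in part. Of 5 endothelial markers 2 (Stab2 and Kdr) were called higher, and the summed TPM of the 5 was 78.1 to 104 in EHBR and 54.1 to 70.6 in SD. Within samples 1 to 3, and with a term for the sets of numbers, 4 of the 5 were called higher by limma. Summed TPM of 5 cholangiocyte markers was 12.2 to 13.9 in EHBR and 15.2 to 17.5 in SD, with 0 of 2 tested markers called by limma or voom and 1 at an unadjusted p under 0.05 by each. Most of this sum was Epcam, which was called lower within samples 1 to 3 (log2 difference -0.45, adjusted p = 0.0449, limma). With a term for the sets of numbers, limma called 1 of the 2 lower. Of 4 erythroid markers 1 was called higher, with sums of 348 to 871 in EHBR and 209 to 824 in SD. Summed TPM of 5 exocrine pancreas markers was 19.8 to 30.7 in EHBR and 39.8 to 65.6 in SD. The 1 tested marker, Cela1, was called lower, 4 of the 5 stayed below 1 TPM in every sample, and 2 of these were listed at 0. Of 5 Kupffer cell, 5 stellate cell and 2 leukocyte markers tested, 0 were called between strains by limma. Within samples 4 and 5, 2 stellate markers were called higher. Cyp17a1, the 1 tested adrenal cortex marker, was called lower only within samples 4 and 5 (log2 difference -1.60, adjusted p = 0.00719, limma). That value minus the one within samples 1 to 3 was -2.35 (adjusted p = 0.0388, limma). The part of these cells in the results above was not tested.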

How the data were processed

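Poly(A) RNA of 10 livers was made into directional libraries after TRIzol extraction, as the labels' protocols describe. HISAT2 2.1.0 and featureCounts 1.6.3, with the build rn6, Trimmomatic 0.38 and FastQC 0.11.7, are listed in the submitters' processing notes. The sources used here do not say if counting used strand, so overlapping genes are uncertain. The authors deposited TPM, FPKM and upper-quartile FPKM values, with 1 column per sample, and the upper-quartile FPKM are a constant multiple of the FPKM in each sample. Sample titles gave strain and number.

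Differences were tested on log2(TPM + 1) with limma 3.58.1 (trend option) in R 4.3.3, two-sided, over the 11083 genes that reached 1 TPM in 5 or more of 10 samples, with Benjamini-Hochberg adjustment over all of them and a threshold of 0.05. This scale understates the change of low genes. Strain was the only factor of the main test. Contrasts within numbers 1 to 3 and 4 and 5, and their difference, came from 1 fit with 4 group means and a shared spread.

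Whole reads recovered from upper-quartile FPKM, for 18036 genes and whole within 0.0002 reads by the way gene lengths were chosen, gave the depth of 13.8 to 19.6 M reads. The lowest value of the 28 genes rests on 145 reads. The same reads served voom.

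The members and lists were chosen with earlier results of these data known. All 28 genes are accounted for. Values in every sample are given for those called by the main fits, over all samples or within a set of numbers. Genes called only in an alternative are given by mean and SD or by their difference. In the other lists up to 2 called genes with the smallest adjusted p were to be named. Me1, Acat1, Slc25a1, the markers and genes called only within a set of numbers were named after their values were seen. Alternatives were FPKM and upper-quartile FPKM, pseudocounts of 0.1 and 5, other filters, scalings and variance models, voom, an exact rank-sum test, a replicate block, a term for the 2 sets of numbers, and leaving out each sample. Python 3.11.15 made tables and figures. Promoter sequences came from a RefSeq table on GRCr8, and gene coordinates from the deposited rn6 annotation.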

Additional observations from a re-analysis of the deposited data

Results flagged for a closer look

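In 4 of 56 groups (28 genes in 2 strains), 1 sample stood apart from the other 4 of its strain, by a gap of more than 0.71 of the range. Chance gives about 1 in 20 such groups. Tm7sf2 had 72.3 TPM in SD sample 2, against 27.0 to 33.1 TPM in the other SD samples, and the strain difference of Tm7sf2 was called only without that sample among the 10 omissions. Insig1 had 224 TPM in SD sample 2, against 111 to 133 TPM in the others. The strains overlapped only between this sample and EHBR sample 1. Insig2 had 343 TPM in SD sample 4, against 194 to 236 TPM in the others. Npc1 had 22.4 TPM in EHBR sample 2, against 16.5 to 18.1 TPM in the others. No cause was tested for these samples.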

How the results depend on the processing

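Hmgcs1 and Insig1 were called between strains in 24 of 25 alternatives each, and Idi1 in 17 of 25. The exact rank-sum test called 0 of the 28 genes higher and 0 lower, since its smallest two-sided p is 0.00794 before adjustment. It had 6 of the 28 at an unadjusted p under 0.05, and 1756 of all 11083 genes. Against 1 gene higher and 2 lower between strains, sample weights gave 2 higher (Insig1 and Soat2), the term for the sets of numbers 4 higher (Insig1, Npc2, Scap and Tm7sf2), and no filter on low values 1 lower. Upper-quartile FPKM, centring, sample weights and that term gave 3 lower, with Msmo1 added. Leaving out 1 sample gave 1 to 2 higher and 1 to 2 lower.

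Among samples 1 to 3, FPKM, upper-quartile FPKM, no filter, quantile normalization, centring, removal of the length trend, the robust fit and sample weights gave 0 higher against 1. Quantile normalization, centring, sample weights and voom gave 4 lower and removal of the length trend 5, against 2. Upper-quartile FPKM and a filter at a mean of 5 TPM gave 3 lower. Omissions gave 0 to 2 higher and 2 to 5 lower. Among samples 4 and 5, FPKM, upper-quartile FPKM, no filter and centring gave 2 higher, and quantile normalization and removal of the length trend 1, against 6. The replicate block, voom and sample weights gave 4 higher, and the robust fit 5. FPKM and upper-quartile FPKM gave 2 lower, centring 3, and no filter, quantile normalization and sample weights 0, against 1. Omissions gave 1 to 7 higher and 0 to 1 lower. In the difference of the strain differences, quantile normalization, the robust fit and a filter at a mean of 5 TPM gave 1 higher (Dhcr7) against 0, and omissions 0 to 1.

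The following signs turned, all in genes that were not called (log2). Acat2 was -0.02 with upper-quartile FPKM and with centring, -0.028 with quantile normalization, -0.159 with sample weights and -0.018 as the median difference beside the rank-sum test. Pmvk was -0.048 with FPKM, -0.116 with upper-quartile FPKM, -0.038 with quantile normalization, -0.134 with centring, -0.014 with the length trend removed, -0.055 with voom and -0.156 to 0.21 over omissions. Fdps was -0.062 with FPKM, -0.063 with voom, -0.131 with upper-quartile FPKM, -0.14 with centring, -0.158 with the length trend removed, -0.002 as the median difference and -0.092 to 0.152 over omissions. Nsdhl was -0.002 with upper-quartile FPKM, -0.006 with centring and -0.024 with the length trend removed. Ebp was -0.056 with FPKM and with voom, -0.125 with upper-quartile FPKM, -0.135 with centring, -0.01 with quantile normalization, -0.012 with sample weights, -0.011 with the length trend removed and -0.022 to 0.107 over omissions. Srebf2 was -0.051 with FPKM, -0.052 with voom, -0.114 with upper-quartile FPKM, -0.124 with quantile normalization, -0.14 with centring, -0.191 with the length trend removed, -0.086 with sample weights, -0.161 as the median difference and -0.096 to 0.1 over omissions. Stard4 was -0.01 with upper-quartile FPKM, -0.065 with quantile normalization, -0.046 with centring, -0.053 with the length trend removed, -0.18 with sample weights and as the median difference, and -0.189 to 0.387 over omissions. Scarb1 was 0.01 with sample weights, 0.127 as the median difference and -0.147 to 0.054 over omissions. Hsd17b7 was 0.035 as the median difference. Insig2 was -0.224 to 0.173 over omissions. The cause was not tested.

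The deviations of same-numbered samples from their strain means correlated across genes at 0.07 to 0.29. Of 10 samples, 3 correlated best with their own number. Over all pairs within a set of numbers the correlations were 0.05 to 0.40, and between the sets -0.37 to -0.09. The difference between the sets enters these deviations, so they cannot show whether the numbers pair the samples. With the replicate block, 2 of the 28 genes were called higher (Insig1 and Scap) and 2 lower between strains, and among samples 4 and 5 the block gave 0 lower. With 2 samples per strain among samples 4 and 5, precision rests on the shared spread.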
